A study of Mus musculus with 2 samples.

Results

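The genes described here are 10 members of the cell junctions that hold epithelial cells together: Cdh1, Cdh3, Epcam, Dsg2, Dsc2, Jup, Pkp1, Pkp2, Pkp3 and Dsp. They were taken by name from the GENCODE M21 annotation of mm10, where all 10 were found among 21853 protein-coding genes, and each was followed over its gene body plus 10 kb on either side, called its locus. The assay was DNase-seq, in which DNase I cuts DNA that nucleosomes leave uncovered, and the tissue was the urinary bladder of female B6CASTF1/J mice, a first-generation cross between C57BL/6 and CAST strains, 18 to 20 months old. The 2 libraries are labelled as biological replicates 1 and 2 of 1 group, with no treatment and no control group. They come from separate tissue samples that share 1 donor record, and nothing says that the samples came from separate animals, so the spread between them may be technical.

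Desmosomes anchor keratin filaments at the cell border. Their cadherins, the desmogleins and desmocollins, meet those of the neighbouring cell outside the membrane, and inside it plakoglobin and the plakophilins pass the load to desmoplakin, which binds the filaments. Adherens junctions use classical cadherins, E-cadherin above all in epithelia, and attach to actin. In the urothelium, the epithelium lining the bladder, both kinds of junction hold together cells that are stretched each time the bladder fills.

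Of the deposited peak lists the longer was used, with 84591 peaks for replicate 1 and 112174 for replicate 2, and with a median deposited signal of 0.819 in replicate 1 and 0.760 in replicate 2. The signal is the authors' own value for a peak. In both libraries all values were whole multiples of 1 step within a tolerance of 0.02, so the signal behaves as a count divided by 1 factor per library, which is not given in the sources used here, and the median peak stood at 96 counts in replicate 1 and 86 in replicate 2. The tissue label was set against marker genes: a peak within 1.0 kb of a transcription start, called a promoter peak, was present in both libraries at 12 of 12 urothelium markers, 6 of 6 fibroblast markers and 5 of 6 smooth muscle markers. It was present at 3 of 5 endothelial, 2 of 4 mesothelial, 1 of 6 immune and 1 of 5 hepatocyte markers. Over all protein-coding genes the share with a promoter peak in both libraries was 63.0%, so the endothelial share (60%) was near it. Bladder is a mixture of the cell types named here other than hepatocytes, which are liver cells. Fewer cells of a type and less accessible DNA per cell therefore cannot be told apart.

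The results turn on a few stretches of accessible DNA, whose letters are from the mm10 (GRCm38.p6) assembly of RefSeq. Most are of the E-cadherin gene, since its introns held the matches to a motif of an epithelial factor, and the others are the strongest peaks of Cdh3 and Jup. The Cdh1 promoter peak upstream of the annotated start is chr8:106603221-106603350 on the plus strand, and capitals mark CAGGTG or its reverse complement, the E-box letters that the repressors SNAI and ZEB bind. The intron peaks of Cdh1 are chr8:106611041-106611240 and chr8:106616001-106616240, plus strand, with capitals on AACCNGTT, the letters of Grainyhead-like (GRHL) factors, and chr8:106647501-106647700, plus strand, with capitals on the forkhead letters TGTTTAC. The peak past the end of Cdh3 is chr8:106563961-106564160, plus strand, with capitals on the AP-1 letters TGANTCA. The Jup promoter is chr11:100397764-100398020, minus strand, with capitals on a reverse match to CCNCNCCC, the letters of Krüppel-like factors (KLF). Positions of peaks are given as the distance in kb of the peak's middle from the annotated gene start along the gene, negative upstream.
Cdh1 promoter: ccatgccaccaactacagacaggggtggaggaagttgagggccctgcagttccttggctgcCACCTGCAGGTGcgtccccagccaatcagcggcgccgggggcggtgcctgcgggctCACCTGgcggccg
Cdh1 intron at 7.79 kb: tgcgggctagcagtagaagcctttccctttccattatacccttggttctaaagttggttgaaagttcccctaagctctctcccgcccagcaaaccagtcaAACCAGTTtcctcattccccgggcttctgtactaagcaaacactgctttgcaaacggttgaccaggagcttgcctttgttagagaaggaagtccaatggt
Cdh1 intron at 12.8 kb: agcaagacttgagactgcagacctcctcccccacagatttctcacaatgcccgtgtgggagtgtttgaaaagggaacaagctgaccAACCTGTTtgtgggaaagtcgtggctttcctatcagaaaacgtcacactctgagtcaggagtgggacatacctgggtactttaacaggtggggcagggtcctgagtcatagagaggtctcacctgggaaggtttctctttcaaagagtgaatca
Cdh1 intron at 44.2 kb: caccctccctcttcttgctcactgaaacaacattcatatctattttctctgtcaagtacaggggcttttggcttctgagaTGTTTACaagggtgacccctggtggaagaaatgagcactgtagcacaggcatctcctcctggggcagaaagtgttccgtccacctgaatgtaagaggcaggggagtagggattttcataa
Cdh3 at 53.2 kb: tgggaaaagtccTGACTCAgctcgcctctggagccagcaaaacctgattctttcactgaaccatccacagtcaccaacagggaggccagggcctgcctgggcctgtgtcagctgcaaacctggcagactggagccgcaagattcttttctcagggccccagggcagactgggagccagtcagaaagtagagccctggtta
Jup promoter: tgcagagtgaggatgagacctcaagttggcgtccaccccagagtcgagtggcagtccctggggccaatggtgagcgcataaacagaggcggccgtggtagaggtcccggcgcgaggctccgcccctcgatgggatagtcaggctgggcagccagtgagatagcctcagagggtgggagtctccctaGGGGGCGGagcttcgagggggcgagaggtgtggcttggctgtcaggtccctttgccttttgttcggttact

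All 10 genes had a promoter peak in both libraries, against 63.0% of all protein-coding genes in both libraries, 64.1% in replicate 1 and 66.4% in replicate 2. In 8 of the 10 the strongest promoter peak lay above the library's median peak in both libraries, as it did for 56.2% of all genes. The median signal of the strongest promoter peak over the 10 genes was 1.94 in replicate 1 and 1.56 in replicate 2, and over all genes, with 0 where there was no promoter peak, it was 1.40 in replicate 1 and 1.56 in replicate 2. Among genes that had a promoter peak the median was 3.27 in replicate 1 and 3.42 in replicate 2. The junction promoters were thus all accessible while most were weak: 8 of the 10 in replicate 1 and 9 of the 10 in replicate 2 lay under that last median.

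**Figure D1:**
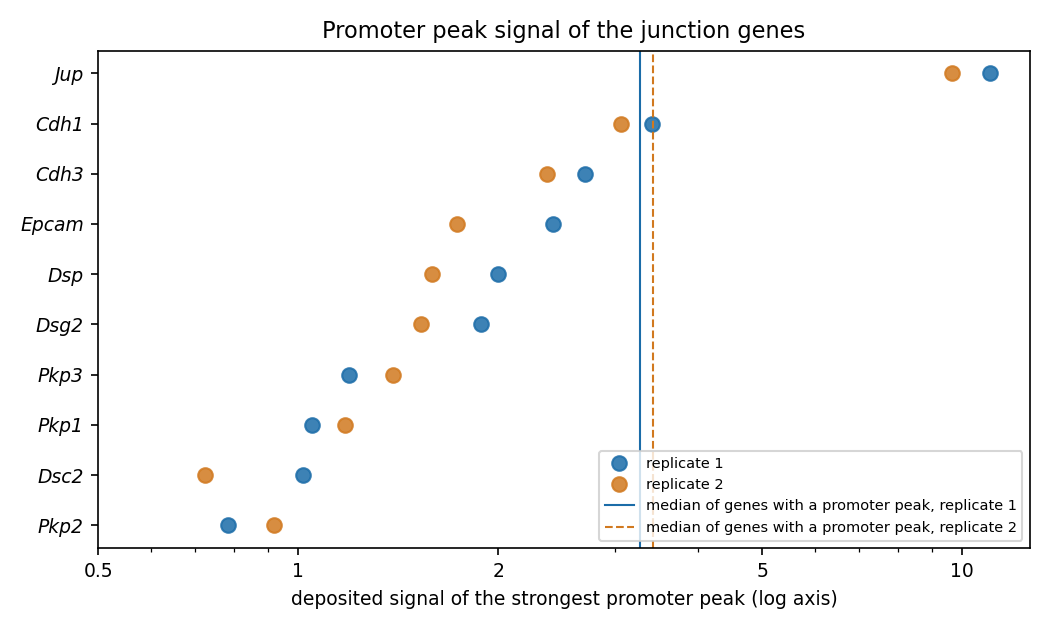
Deposited signal of the strongest promoter peak of each junction gene (log axis), 1 point per library, with vertical lines at the median of all genes that had a promoter peak. Jup stands apart at 11.03 and 9.63, and from Cdh3 down to Pkp2 every point lies left of both lines.

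Of the classical cadherins, Cdh1 (ENSMUSG00000000303.12, chr8:106603351-106670246, plus strand) encodes E-cadherin, the main adherens junction cadherin of epithelia. Its promoter peak had a signal of 3.41 in replicate 1 and 3.06 in replicate 2, a mean of 3.23 ± 0.25 (SD, n = 2), and 66.3% of all genes had a lower mean. It stood at 400 counts in replicate 1, for which the exact 95% Poisson interval runs from 3.08 to 3.76 in signal, and at 346 counts in replicate 2, with an interval of 2.74 to 3.40; these intervals overlap and cover counting error only. Cdh3 (ENSMUSG00000061048.8, chr8:106510891-106557297, plus strand), which encodes P-cadherin, a classical cadherin of basal epithelial cells, lies next to Cdh1 on the same strand. Its promoter peak had a signal of 2.70 in replicate 1 and 2.37 in replicate 2.

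Epcam (ENSMUSG00000045394.9, chr17:87635979-87651129, plus strand) encodes an adhesion protein of epithelial cells that is not a cadherin. Its strongest promoter peak, 0.612 kb into the gene over an untranslated exon, had a signal of 2.42 in replicate 1 and 1.73 in replicate 2, and 2 further promoter peaks lay at -0.158 kb and at 1.24 kb. At -0.158 kb the signal was 1.01 in replicate 1 and 1.23 in replicate 2, and at 1.24 kb it was 1.56 and 1.62. These 3 peaks were all that the Epcam locus held in either library.

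The desmosomal cadherin genes had weaker promoters than the classical ones in both libraries. Dsg2 (ENSMUSG00000044393.15, chr18:20558074-20604521, plus strand) encodes desmoglein 2, the desmoglein of simple epithelia and heart, and its promoter peak had a signal of 1.88 in replicate 1 and 1.53 in replicate 2. Dsc2 (ENSMUSG00000024331.11, chr18:20030633-20059554, minus strand) encodes desmocollin 2, its partner cadherin. The strongest Dsc2 promoter peak differed between the libraries: in replicate 1 it was the peak at -0.127 kb, with 1.01, and in replicate 2 the peak at 0.283 kb, with 0.725. At the upstream position replicate 2 had 0.601, with a Poisson interval of 0.467 to 0.762. Replicate 1 had an interval of 0.841 to 1.21, so these intervals did not overlap. This was not particular to Dsc2: those of the Jup promoter peak, 10.4 to 11.6 in replicate 1 and 9.07 to 10.2 in replicate 2, did not overlap either. The intervals cover counting error only and are not centred between the libraries. The upstream Dsc2 peak held 3 footprints in replicate 1 and none in replicate 2. Footprints are the short stretches protected from cutting that the authors called inside accessible DNA.

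The armadillo proteins spanned the whole range. Jup (ENSMUSG00000001552.14, chr11:100368958-100397763, minus strand) encodes plakoglobin, which serves desmosomes and adherens junctions both. Its promoter peak had the highest signal of the 10 genes, 11.03 in replicate 1 and 9.63 in replicate 2, a mean of 10.3 ± 0.985 (SD, n = 2), and 98.6% of all genes had a lower mean. The next of the 10, Cdh1, lay at 3.23, a gap larger than the spread of either gene between the libraries. The plakophilins, which gather desmosomal proteins at the membrane, were all low. Pkp3 (ENSMUSG00000054065.12, chr7:141078218-141090510, plus strand) had 1.19 in replicate 1 and 1.39 in replicate 2, and Pkp1 (ENSMUSG00000026413.12, chr1:135871395-135919207, minus strand) had 1.05 in replicate 1 and 1.18 in replicate 2. Pkp2 (ENSMUSG00000041957.15, chr16:16213318-16272712, plus strand), the plakophilin found also in heart muscle, had 0.784 in replicate 1 and 0.919 in replicate 2, the lowest mean of the 10 genes at 0.852 ± 0.0951 (SD, n = 2). The 3 plakophilins were also the only ones of the 10 genes with a higher deposited promoter signal in replicate 2 than in replicate 1. Over all peaks paired by overlap, the median log2 ratio (replicate 2 over replicate 1) was 0.14. Relative to that median, their strongest promoter pairs lay near 0, at 0.07 for Pkp3, 0.02 for Pkp1 and 0.08 for Pkp2. Those of the other genes lay lower, from -0.90 for Dsc2 to -0.30 for Cdh1. The median over all promoter pairs was -0.07 on this scale.

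Dsp (ENSMUSG00000054889.10, chr13:38151294-38198577, plus strand) encodes desmoplakin, the plakin that ties desmosomes to keratin filaments. Its promoter peak had a signal of 2.00 in replicate 1 and 1.59 in replicate 2. In the order of mean promoter signal, Jup stood first, then Cdh1, Cdh3, Epcam, Dsp, Dsg2, Pkp3, Pkp1, Dsc2 and Pkp2. Several neighbours in this order were closer than their spread: Cdh3 (2.54 ± 0.237) and Epcam (2.08 ± 0.488), Epcam and Dsp (1.79 ± 0.286), Dsp and Dsg2 (1.71 ± 0.252), and Dsc2 (0.870 ± 0.205) and Pkp2 (SD, n = 2 each).

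The promoter windows of the 10 genes, 250 bases before to 50 bases after the annotated start, were searched on both strands for 12 motifs. CAGGTG was found in 8 of the 10 windows, against 20.4% of all protein-coding genes; the exceptions were Jup and Dsc2. The share was 21.7% among genes whose window had a GC content between 57% and 73%, the range of the 10 genes, and 18.6% among genes with a promoter peak in both libraries. In windows of 500 bases either side of the start, a choice made after seeing the data, all 10 genes had a match, against 55.5% of all genes. In 200 bp centred on the strongest promoter peak of replicate 1, also chosen after seeing the data, 7 of the 10 had one. The share was 11.9% among all genes with a promoter peak in replicate 1. The other E-box searched for comparison, CACGTG, which basic helix-loop-helix factors bind, was found in 1 of the 10 windows, that of Epcam. Its share was 7.75% of all genes, 11.3% of genes in the GC range of the 10 and 9.86% of genes with a promoter peak in both libraries. KLF letters were found in 9 of the 10, against 54.6%, and a CTCF core motif in 4 of the 10, against 9.43%. The TEAD letters GGAATG were found in 1 of the 10, that of Dsg2, against 13.5%. No window of the 10 held the GRHL letters (1.97% of all genes), the AP-1 letters (6.90%), the GATA letters AGATAA (10.2%) or the forkhead letters (3.07%). Nor did any hold the ETS letters CCGGAAG (10.8% of all genes), a p53 family motif (0.718%) or a PPAR and RXR motif (0.380%). The windows of the 10 genes had a median GC content of 63.7%, against 55% for all genes.

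The 8 windows held 13 CAGGTG matches, 12 of them before the annotated start. Background knowledge of these letters comes from E-cadherin, whose promoter E-boxes are known binding sites of SNAI and ZEB repressors, and in the Cdh1 sequence above 3 matches lie within the promoter peak, starting at base -69, -63 and -13 from the gene start, the first 2 of them back to back. For 6 other genes 1 match each is shown with its surroundings, to let the letters around the E-box be compared; capitals mark the match. On mm10 they are chr8:106510781-106510810 for Cdh3, chr17:87635780-87635809 for Epcam, chr13:38151285-38151314 for Dsp, chr1:135919375-135919404 for Pkp1, chr16:16213105-16213134 for Pkp2 and chr7:141077983-141078012 for Pkp3, on the minus strand for Pkp1 and on the plus strand for the others.
Cdh3 at -98: tggcctcgacccCACCTGcgagggggcggg
Epcam at -187: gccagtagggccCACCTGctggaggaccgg
Dsp at 4: gaagaagccgacCAGGTGtggcctgggcgc
Pkp1 at -185: tcccctggacgtCACCTGgagaggaaggac
Pkp2 at -201: agttcccagctgCACCTGtcctaagggcag
Pkp3 at -223: tggctacgaccaCACCTGagcccctggcag

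Of the 13 matches, 10 lay inside a peak in each library. The others, 1 each at Epcam, Dsg2 and Pkp3, lay in no peak in either library. Pkp3 had no further match, and its strongest promoter peak in replicate 1 lay 1.45 kb past the annotated start. A footprint covered 1 of the 10 matches inside a peak in replicate 1, at Dsg2. In replicate 2 it was 3 of the 10, at Dsg2, Cdh3 and Epcam. Of all such matches inside a peak, footprints covered 20.4% in replicate 1 and 22.6% in replicate 2. No footprint covered any of the 3 matches of Cdh1 in either library. Of 6 genes of factors known from epithelial-mesenchymal transition, all had a promoter peak in both libraries, against 63.0% of all protein-coding genes. They were the SNAI and ZEB genes Snai1, Snai2, Zeb1 and Zeb2 and the basic helix-loop-helix genes Twist1 and Twist2. Snai1 led with 4.25 in replicate 1 and 4.08 in replicate 2, then Snai2 with 2.08 and 2.42, and Zeb1 with 1.94 and 1.92. CAGGTG was found in the windows of 7 of the 12 urothelium markers, 5 of the 11 other desmosome genes and 2 of the 11 other adherens junction genes. It was found in 2 of the 5 hepatocyte, 2 of the 6 immune, 1 of the 4 mesothelium, 1 of the 6 smooth muscle, 0 of the 5 endothelium and 0 of the 6 fibroblast markers, in 1 of the 8 cadherins of other tissues and in 2 of the 6 genes of epithelial-mesenchymal transition factors.

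**Figure D2:**
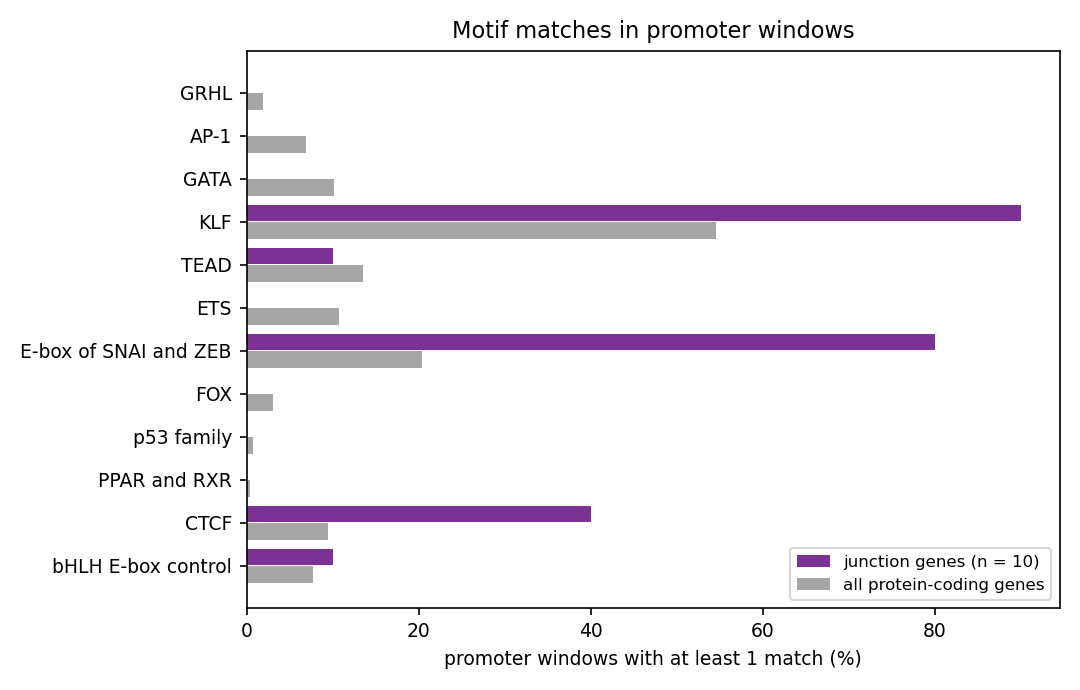
Share of promoter windows with at least 1 match to each of 12 motifs, in percent, for the 10 junction genes (upper bar of each pair) and for all protein-coding genes (lower bar). The E-box of SNAI and ZEB is matched in 8 of the 10 junction windows against 20.4% of all, while the control E-box is matched in 1 of the 10 against 7.75%.

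The 10 loci together held 73 peaks in replicate 1 and 76 in replicate 2. Of these, 24 in replicate 1 and 20 in replicate 2 were promoter peaks of the 10 genes, 5 in replicate 1 and 3 in replicate 2 were promoter peaks of neighbours, and 44 in replicate 1 and 53 in replicate 2 lay over 1.0 kb from every protein-coding start and are called non-promoter peaks. Introns held 29 of the non-promoter peaks in replicate 1 and 31 in replicate 2, and the rest lay up to 10 kb upstream or downstream of a gene; none lay over an exon of the 10 genes. In 8 of the 10 genes there was at least 1 non-promoter peak in both libraries, against 59.6% of all genes. Epcam and Dsc2 had none in either library.

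Per 10 kb of locus, the median density of non-promoter peaks over the 10 genes was 0.598 in replicate 1 and 0.717 in replicate 2, a mean of 0.658 ± 0.0838 (SD, n = 2). Over all genes it was 0.223 in replicate 1 and 0.355 in replicate 2, a mean of 0.289 ± 0.0939. The difference between these means was larger than either SD, which measures the spread between libraries and not that between genes. In each library 8 of the 10 genes lay above the median of all genes. A high density was not particular to the 10 genes: the mean was 0.790 ± 0.317 for the other adherens junction genes and 0.948 ± 0.184 for the urothelium markers. For the other desmosome genes it was 0.267 ± 0.130. Jup had the highest density, 2.46 in replicate 1 and 2.87 in replicate 2, above 99.7% of all genes. Pkp1 followed with 1.33 in replicate 1 and 1.18 in replicate 2, above 94.7% of all genes. Cdh3 had 0.753 and 1.20, Dsg2 had 0.602 and 1.05, Dsp had 0.594 and 0.743, and Cdh1 had 0.690 in both libraries, each pair given as replicate 1 and then replicate 2. Pkp3 had 0.310 and 0.619, and Pkp2 had 0.378 in both. The density ranked the genes otherwise than the promoter signal did: by the means, Pkp1 had 1 of the 3 weakest promoters and a density under that of Jup alone, though Cdh3 was denser in replicate 2, and Epcam, with a stronger promoter, had a density of 0.

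**Figure D3:**
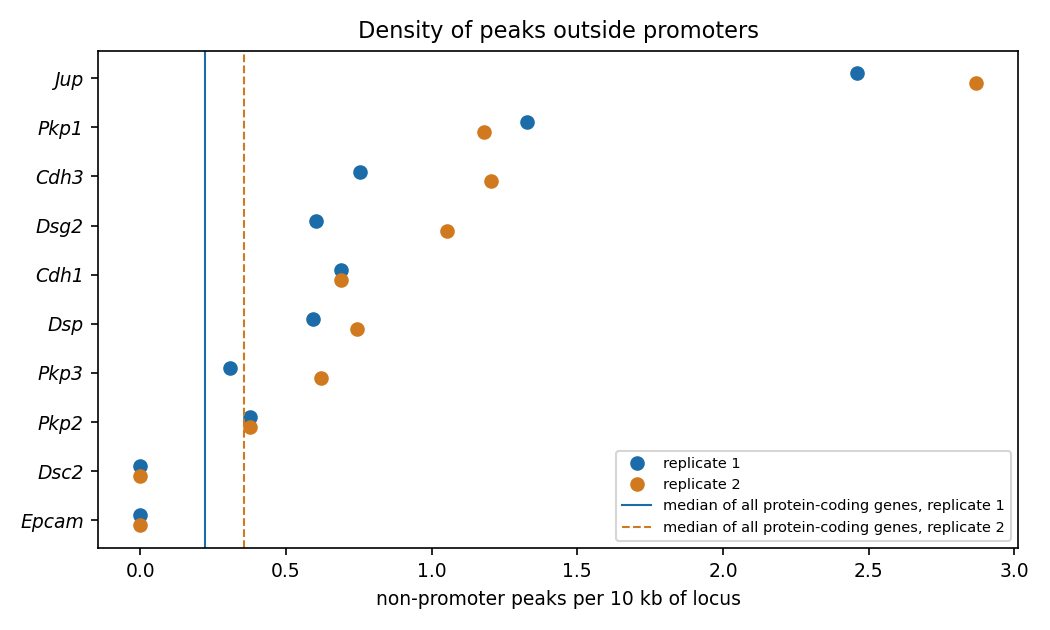
Non-promoter peaks per 10 kb of locus for each junction gene, 1 point per library, with vertical lines at the median of all protein-coding genes. Jup lies at 2.46 and 2.87, far right of the lines at 0.223 and 0.355, and Epcam and Dsc2 lie at 0.

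Jup led the 10 loci in peaks, summed signal, footprints and the share of the locus covered by frequently cut bases. Its locus held 14 peaks in replicate 1 and 16 in replicate 2, with a summed signal of 29.0 in replicate 1 and 29.2 in replicate 2 and with 32 footprints in replicate 1 and 36 in replicate 2. The deposited cut-rate table gives a false discovery rate to each stretch of bases, and stretches under 0.001 covered 4.47% of the Jup locus in replicate 1 and 7.16% in replicate 2. The median over the 10 genes was 2.14% in replicate 1 and 2.34% in replicate 2, against 1.21% and 1.58% over all genes. The strongest non-promoter peak of Jup shared by both libraries, by the mean, lay in an intron at 2.30 kb, with a signal of 2.87 in replicate 1 and 2.17 in replicate 2; in replicate 2 the peaks past the gene end at 34.4 kb (2.38) and 35.1 kb (2.33) were stronger. A footprint covered the KLF match printed for the Jup promoter in both libraries.

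Cdh1 had 6 non-promoter peaks in each library, all of them intronic and all shared. The strongest of them by the mean lay at 44.2 kb, with 1.53 in replicate 1, under the peaks at 7.81, 16.4 and 43.6 kb, and 3.25 in replicate 2, and the forkhead letters in the sequence printed for it lay under a footprint in both libraries. Its neighbour at 43.6 kb had 1.73 in replicate 1 and 1.78 in replicate 2. The peak at 7.79 kb, singled out after its values were seen, had 1.88 in replicate 1 and 2.08 in replicate 2, and its GRHL match lay under a footprint in both libraries. GRHL2, a Grainyhead-like factor of epithelia, is known in mouse to bind an intron of Cdh1. The peak at 12.8 kb, singled out in the same way, held the other GRHL match of the locus, with 0.921 in replicate 1 and 1.25 in replicate 2, and no footprint covered that match in either library.

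Cdh3 had its strongest accessible DNA not at its promoter but past its end. The peak at 53.2 kb, 6.76 kb beyond the annotated gene end, had 4.02 in replicate 1 and 3.62 in replicate 2, and the peak at 50.4 kb had 3.18 in replicate 1 and 2.86 in replicate 2. Both were above the Cdh3 promoter peak in both libraries, and no annotated protein-coding gene spans them. They lie on the side of Cdh3 that faces Cdh1, with 39.3 kb between the stronger peak and the Cdh1 start, and no assignment to either gene was tested. The AP-1 match in the stronger peak was covered by no footprint in either library.

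Pkp1 and Pkp3 resembled Cdh3 in this respect. In Pkp1 the strongest shared peak outside the promoter lay at 53.5 kb, past the gene end, with 2.17 in replicate 1 and 3.50 in replicate 2, against a promoter of 1.05 in replicate 1 and 1.18 in replicate 2. In Pkp3 it lay at 14.3 kb, over a coding exon of the neighbouring gene Sigirr, with 3.24 in replicate 1 and 3.85 in replicate 2, and its gene of reference cannot be told from position. In Dsp the strongest shared non-promoter peak by the mean lay in an intron at 11.6 kb, with 2.50 in replicate 1 and 1.70 in replicate 2. The peak upstream of Dsp at -6.13 kb had 1.84 in replicate 1 and 2.18 in replicate 2, so that it was the stronger in replicate 2. Dsg2 had an intron peak at 8.87 kb with 0.674 in replicate 1 and 1.36 in replicate 2, and Pkp2 had one at 11.3 kb with 0.836 in replicate 1 and 0.954 in replicate 2. The Dsp and Pkp3 windows also hold parts of other genes. In the Dsp window the peak at 53.6 kb, with 3.31 in replicate 1 and 3.25 in replicate 2, is the promoter peak of Snrnp48.

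**Figure D4:**
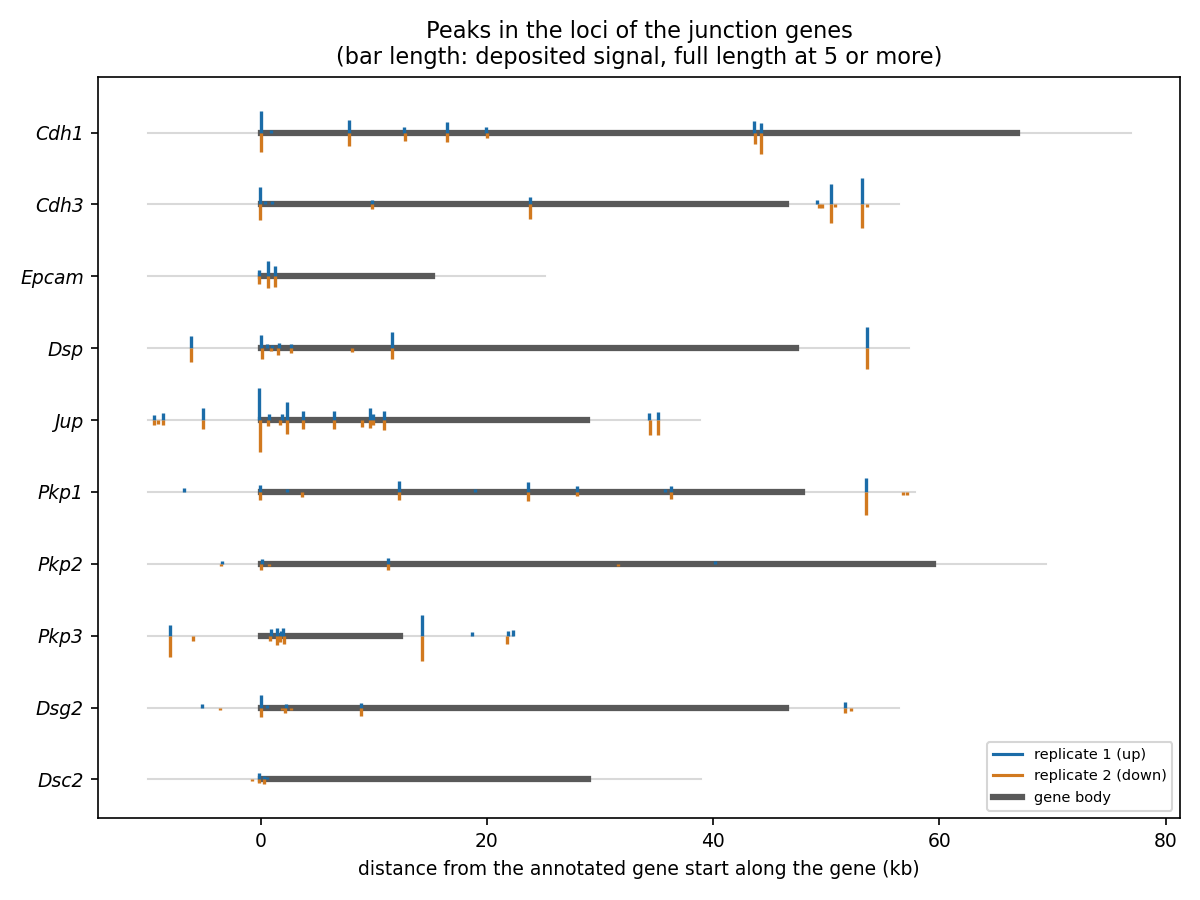
Peaks along the 10 loci, by distance in kb from the annotated gene start along each gene; dark lines are gene bodies, bars upward are replicate 1 and bars downward replicate 2, with bar length the deposited signal up to 5. Jup is packed with peaks, and Epcam and Dsc2 have peaks only at their starts. The tallest Cdh3, Pkp1, Pkp3 and Dsp bars stand past the gene end, over neighbouring genes for Pkp3 (Sigirr) and Dsp (Snrnp48).

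The letters in the non-promoter peaks were counted in 200 bases around each peak's middle. KLF letters were found in 24 of 44 peaks (54.5%) in replicate 1 and in 27 of 53 (50.9%) in replicate 2, against 28.7% in replicate 1 and 25.0% in replicate 2 of the non-promoter peaks of all protein-coding loci. Jup alone held 10 of these peaks in each library, and without Jup, a choice made after seeing the data, the shares were 43.8% in replicate 1 and 43.6% in replicate 2. The windows had a median GC content of 56% in replicate 1 and 55% in replicate 2, against 52% and 50.5% for all loci, and the part of GC content in the KLF share was not tested. AP-1 letters were found in 29.5% of the junction peaks in replicate 1 and 28.3% in replicate 2, against 18.7% and 16.7%. The CAGGTG letters were found in 25.0% in replicate 1 and 20.8% in replicate 2, against 17.0% and 15.4%. GRHL letters were found in 2 peaks (4.55%) in replicate 1 and in 3 (5.66%) in replicate 2, against 2.94% and 2.73%; both matches in replicate 1 were in Cdh1, and the third of replicate 2 lay past the end of Cdh3. CTCF letters were found in 22.7% in replicate 1 and 15.1% in replicate 2, against 16.5% and 17.1%, so they lay above the share of all loci in replicate 1 and under it in replicate 2. ETS, p53 and PPAR letters were found in 0 of these peaks in either library. Over all loci ETS letters were found in 1.95% in replicate 1 and 1.66% in replicate 2, p53 motifs in 0.997% and 0.877%, and PPAR motifs in 0.447% and 0.45%. GATA letters were found in 11.4% of the junction peaks in replicate 1 and 5.66% in replicate 2, against 9.42% of all in both, TEAD letters in 11.4% and 17.0%, against 13.4% and 13.0%, and forkhead letters in 6.82% and 1.89%, against 4.33% and 4.01%. The control E-box was found in 6.82% in replicate 1 and 3.77% in replicate 2, against 4.77% and 4.31%.

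Footprints covered some of these matches. Of the KLF matches, 13 of 40 lay under a footprint in replicate 1 and 12 of 40 in replicate 2, against 28.2% and 31.2% of the KLF matches of all loci. Of the AP-1 matches it was 3 of 13 in replicate 1 and 4 of 17 in replicate 2, against 19.8% and 20.4%. Of the CTCF matches it was 6 of 10 in replicate 1 and 5 of 8 in replicate 2, against 67.8% and 73.9%. Of the GRHL matches it was 1 of 2 in replicate 1 and 1 of 3 in replicate 2, against 18.9% and 17.4%, and of the forkhead matches 1 of 3 in replicate 1 and 1 of 1 in replicate 2, against 8.55% and 7.96%, in each case the match printed for Cdh1. Of the CAGGTG matches it was 2 of 13 in replicate 1 and 1 of 13 in replicate 2, against 20.4% and 23.8%, and of the TEAD matches 2 of 6 in replicate 1 and 3 of 9 in replicate 2, against 13.0% and 13.9%. Of the GATA matches it was 0 of 6 in replicate 1 and 0 of 4 in replicate 2, against 11.8% and 12.4%, and of the control E-box matches 1 of 3 in replicate 1 and 0 of 2 in replicate 2, against 27.1% and 26.1%. All of these counts are small.

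Of the 73 peaks of replicate 1 in the 10 loci, 61 (83.6%) overlapped a peak of replicate 2 by at least 1 base, against 86.0% of the peaks in all protein-coding loci. Of the 76 peaks of replicate 2, 59 (77.6%) overlapped one of replicate 1, against 66.5%. The peaks found in 1 library alone were weak: none of the 12 in replicate 1 and 2 of the 17 in replicate 2 lay above the library's median, and the strongest of them had a signal of 0.648 in replicate 1 and 1.07 in replicate 2. A footprint lay in 56 of the 73 peaks (76.7%) in replicate 1 and in 60 of the 76 (78.9%) in replicate 2, against 78.1% and 77.3% over all loci, so the footprint shares were near those of all loci.

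Summed over the locus, 6 of the 10 genes had a higher signal in replicate 2 than in replicate 1 and 4 a lower one, while over 17298 protein-coding loci the log2 ratio (replicate 2 over replicate 1) had a median of 0.28. Relative to that median, 9 of the 10 lay lower in replicate 2, against 50% of all loci, and their median was -0.25. The SD of all loci was 0.45 on the same scale, and 9 of the 10 lay within it. Dsc2 was lowest at -0.66, followed by Epcam at -0.41, Dsp at -0.39, Cdh3 at -0.29, Jup at -0.27, Pkp1 at -0.23 and Cdh1 at -0.13. Dsg2, Pkp2 and Pkp3 were at 0.01 or less from the median, so that the count of 9 rests in part on values of nearly 0. The urothelium markers moved the same way: 11 of 12 lay lower, with a median of -0.27, none of their promoters was at 0, and the signal summed over their loci came to 90.5 for replicate 1 and 93.7 for replicate 2. Of the smooth muscle markers 2 of 6 lay lower, with a median of 0.19, the signal summed over their loci came to 28.7 for replicate 1 and 37.1 for replicate 2, and Actg2 had no promoter peak in replicate 2. Of the other marker lists, the median was -0.21 for hepatocyte, -0.08 for immune, 0.002 for fibroblast, 0.18 for endothelium and 0.29 for mesothelium. It was -0.45 for the other desmosome genes and -0.13 for the other adherens junction genes. For the genes of epithelial-mesenchymal transition factors it was -0.44, and for the cadherins of other tissues 0.39. The part of tissue makeup in the ratios of the junction genes was not tested.

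Peak by peak, 60 pairs of overlapping peaks could be compared in the 10 loci, and 44 of them differed by less than 1 SD of all pairs (0.50 on the log2 scale, centred on the median of 70427 pairs), against 70.4% of all pairs. Of the other 16 pairs, 8 were higher and 8 lower in replicate 2. The pairs that were highest in replicate 2 relative to replicate 1 lay away from the promoters of the 10 genes. They were led by the Jup peak at 34.4 kb, past the gene end, with 1.11 in replicate 1 and 2.38 in replicate 2, a centred log2 ratio of 0.96. The Cdh1 intron peak at 44.2 kb followed with 0.95. At the other end stood the upstream promoter peak of Dsc2 with -0.90 and the Dsp intron peak at 11.6 kb with -0.70. Single peaks of a locus thus moved in opposite directions, as in Jup, where the promoter peak had -0.34.

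**Figure D5:**
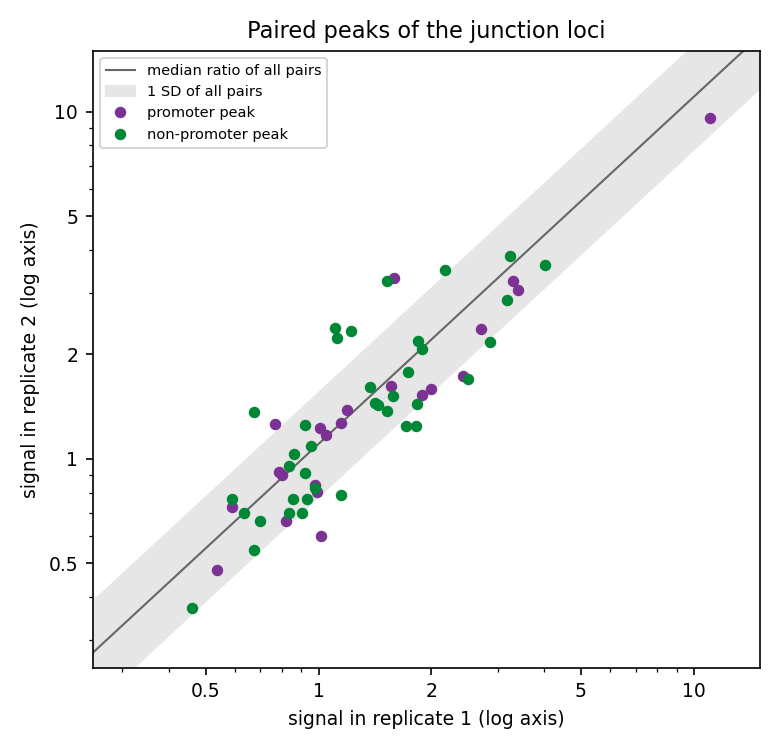
Signal of each paired peak of the 10 loci in replicate 1 (horizontal) and replicate 2 (vertical), both on log axes, with promoter and non-promoter peaks coloured apart, a line at the median ratio of all pairs and a band of 1 SD. Of the 60 pairs 44 lie in the band, and the points furthest above it are non-promoter peaks of Jup and Cdh1.

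Other genes of the same junctions were counted from lists, beside the 63.0% of all protein-coding genes with a promoter peak in both libraries. Of 11 other adherens junction genes, all 11 had a promoter peak in both libraries, led by Vcl, which encodes the actin linker vinculin, with 11.2 in replicate 1 and 9.18 in replicate 2, Nectin2 with 7.43 and 7.24, and Ctnnb1, which encodes beta-catenin, with 6.34 and 5.87. Of 11 other desmosome genes, 5 had one in both libraries, led by Evpl and Ppl, which encode the plakins envoplakin and periplakin, with 5.86 and 4.28 for Evpl and 4.61 and 3.34 for Ppl, and by Pkp4 with 4.14 and 4.08, each pair given as replicate 1 and then replicate 2. The 6 with no promoter peak in either library were Dsg1a, Dsg1b, Dsg1c, Dsg3, Dsg4 and Dsc1, all desmosomal cadherins best known from skin and hair. They lie in the same cadherin cluster of chromosome 18 as Dsg2 and Dsc2, whose promoters were accessible in both libraries. The other listed cadherin of the cluster, Dsc3, had a weak promoter peak of 0.452 in replicate 1 and 0.468 in replicate 2. Cldn7, which encodes a claudin known to bind the Epcam protein, had a promoter peak in both libraries, with 2.47 in replicate 1 and 2.10 in replicate 2.

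Of 8 cadherins better known from other tissues, 5 (62.5%) had a promoter peak in both libraries, near the 63.0% of all protein-coding genes. Cdh15, Cdh16 and Cdh17, known from muscle, kidney and intestine, had none. The 3 with the highest signal were Cdh4 with 1.49 in replicate 1 and 1.18 in replicate 2, Cdh11, a cadherin of mesenchyme, with 1.08 and 0.778, and Cdh2, which encodes N-cadherin, with 0.887 and 0.716. Cdh1 and Cdh3 lay above all 8 of these in both libraries. By the mean, however, Cdh4 (1.33) lay above the junction genes Pkp3 (1.29), Pkp1 (1.11), Dsc2 (0.870) and Pkp2 (0.852).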

How the data were processed

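DNase-seq libraries of urinary bladder, replicates 1 and 2 of 1 group, were analysed from the files that the authors deposited for each library separately. Per the deposited file listing, these are peaks, footprints and false discovery rates of the cut rate on mm10; no header or label used here names the aligner or the callers. The peak value deposited by the authors is a signal whose values are whole multiples of a step that differs between the libraries. The cut-rate table, as deposited, holds a p-value-like false discovery rate per stretch of bases, listed under 0.05, and the deposited footprints carry the same p-value in every row. Of the longer and the shorter peak list of a library, the longer was used.

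Genes and 54361 transcription starts of protein-coding genes came from GENCODE M21. A promoter peak lies within 1000 bp of a start, and a footprint belongs to a peak when its middle does. Motif letters were searched on both strands in the GRCm38 sequence. With 1 group of 2 libraries no test was made: values are given per library or as mean ± SD, beside the same over all genes, and the steps were tested on simulated data. Python 3.11.15, numpy 2.4.6, pandas 2.3.3, scipy 1.17.1, pysam 0.24.0 and matplotlib 3.10.9 were used.

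All 10 genes are named. Of the other junction lists the genes with no promoter peak and the 3 with the highest mean promoter signal are named, and of the peaks the strongest promoter and shared non-promoter peak of each gene and the largest differences in each direction; peaks, promoters and genes named beyond this were chosen after their values were seen. The 10 genes, the lists and the motifs were chosen with earlier results of these data known. Sequences of Dsg2 and Dsc2 are not shown. 1 gene of the other junction lists is not reported here.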

Additional observations from a re-analysis of the deposited data

How the results depend on the processing

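Of 42 alternative settings, 31 left the values within a set spread or the counts within 1.5 times, and 11 moved them. That spread was the SD between the libraries, except for the overlap and the ratio. For the overlap it was the 95% binomial interval, and for the centred log2 ratio the SD over the 10 genes (0.22). Leaving out 1 library cannot move a mean of 2 libraries beyond their SD, nor lower a promoter count of 10 in both. Those settings therefore fell within the spread by construction. Against all loci, the overlap share of replicate 1 peaks in the 10 loci lay lower in the main setting (83.6% against 86.0%). It also lay lower with 50% overlap of both peaks (71.2% against 72.7%), equal numbers of the strongest peaks (77.1% against 83.4%) and a 0.0 kb flank (82.4% against 85.8%). The share lay higher with the shorter lists (89.6% against 88.6%), and that of replicate 2 peaks lay higher in the main setting (77.6% against 66.5%). The footprint share lay higher in the main setting (77.8% against 77.7%), lower with the shorter lists (86.4% against 86.9%) and lower without replicate 2 (76.7% against 78.1%), so neither share differs from that of all loci in a fixed direction. The median density of non-promoter peaks in the 10 loci was 0.535 per 10 kb over gene bodies with a 0.0 kb flank (0 over all genes), 0.485 with the shorter deposited lists, 0.378 with equal numbers (42295) of the strongest peaks per library (0 over all genes) and 0.419 when only peaks nearest to the gene's own start were counted; it ranged from 0.598 to 0.717 with 1 library left out. The share of replicate 1 peaks overlapped in replicate 2 was 71.2% when at least 50% of both peaks had to overlap. The share of peaks with a footprint ranged from 76.7% to 78.9% with 1 library left out. The GRHL share was 4.16% in windows of 100 bp, 8.13% in windows of 300 bp and 6.67% with a 0.0 kb flank, and ranged from 4.55% to 5.66% with 1 library left out; it rests on 2 and 3 peaks. The KLF share, with alternatives chosen after seeing the data, was 43.7% without Jup and 38.2% in windows of 100 bp, and ranged from 50.9% to 54.5% with 1 library left out. The causes of these shifts were not tested. The count of genes with a promoter peak in both libraries was 10 under every setting except equal numbers of the strongest peaks, where it was 8: Pkp2 had none in either library and Dsc2 none in replicate 2. The median centred log2 ratio of the 10 loci was -0.12 with paired peaks only and -0.14 with the shorter lists. It was -0.37 with promoter peaks only, -0.41 with non-promoter peaks only and -0.36 with a 0.0 kb flank. Scaling by the ratio of paired peaks, also chosen after seeing the data, gave a median log2 ratio of -0.11 for the 10 loci and 0.14 for all loci. Leaving out a library is not possible for the overlap and the ratio, which need both. No paired analysis was possible because there is only 1 group.

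With 2 libraries, the SDs are themselves uncertain, and depth can be read only from the signal steps. Peaks under the calling threshold are not listed, so a locus without a listed peak is not shown to be closed. Overlap of a peak with a gene's window does not tie it to that gene. DNA of the CAST parent was read against a C57BL/6 assembly, and its part in the values was not tested.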

Other observations

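Between the Cdh3 and Cdh1 windows, outside both, lies a gap of 26.1 kb on chromosome 8. It held 5 peaks in replicate 1 and 2 peaks in replicate 2, and 2 peaks of each library overlapped one of the other. The strongest of them had a signal of 1.01 in replicate 1 and 1.07 in replicate 2, under both promoter peaks and under the stronger peaks past the end of Cdh3.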
